A study of Mus musculus with 6 samples.

Results

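The genes described are the ligands and receptors of axon guidance in the mouse: semaphorins of classes 3 to 7, ephrins and Slits on the ligand side, and plexins, neuropilins, Eph receptors, Robo receptors and the netrin receptors Unc5 and Dcc on the receptor side. They were chosen by name alone, as protein-coding genes whose GENCODE symbol belongs to one of 11 families. The rule found 64 genes, 31 ligands and 33 receptors, among the 21974 protein-coding genes and 31053 genes listed in all. A further 3 matching names, all antisense transcripts of Plxna4, are not protein-coding and were left out.

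Axon guidance cues steer growing axons and dendrites by attraction or repulsion. Semaphorins signal through plexins, with neuropilins as co-receptors for the secreted class 3 members, ephrins signal through Eph receptor tyrosine kinases at sites of cell contact, Slits signal through Robo, and netrin signals through Dcc and the Unc5 receptors. Many of these proteins stay in use in maturing neurons, where they act on spines, synapses and plasticity. All are made on membrane-bound ribosomes, since they are secreted or sit in the cell surface.

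The study, called Ribo-STAMP, marks mRNAs bound by ribosomes with C-to-U edits. A ribosomal protein is fused to the cytidine deaminase APOBEC1, and the number of edits per read of a gene (EPR) serves as its readout. The libraries were bulk, poly(A)-selected RNA-seq of primary cortical neurons from wild-type C57BL/6J mouse embryos, 3 libraries expressing RPL10A-STAMP and 3 expressing RPL22-STAMP. RPL10A and RPL22 are both proteins of the large ribosomal subunit.

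Both fusions carry APOBEC1 and came by AAV at day 6 in vitro from a doxycycline-inducible vector in which the synapsin promoter drives the transactivator, so that expression is meant for neurons. Every culture had also received floxuridine, which limits dividing cells, and 1 µg/ml doxycycline for 48 h, and cells were taken at day 14. The 2 groups share all of this and differ in the ribosomal protein and in the side it sits on: Rpl10a follows APOBEC1 at its C terminus, and Rpl22 precedes the enzyme at its N terminus. Protein and orientation cannot be told apart. No library without a fusion and no read count was analysed here, so neither background edits nor RNA levels are known for any gene, and an EPR of 0 may stand for no edits or for no reads.

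The libraries were alike in breadth. They held 9892 to 11195 genes with an EPR above 0, here called edited, and their median EPR, taken over the 8046 genes edited throughout, ran from 0.00907 to 0.0161. RPL22-STAMP replicate 3 had the fewest edited genes of all and the fewest edited guidance genes, 36 against 43 to 48 in the other libraries. All 9 neuron markers (among them Map2, Rbfox3 and Slc17a7) were edited in all 6 libraries. So were 3 of 4 astrocyte markers (Gfap, Slc1a3 and Aqp4), whose summed EPR over the list was 0.0996 to 0.131 under RPL10A-STAMP and 0.0825 to 0.138 under RPL22-STAMP. Of the oligodendrocyte lineage markers 1 of 5 (Mbp) was edited in all 6 libraries, of the microglia markers 0 of 4, and both endothelial markers were at 0 throughout. The summed EPR of the oligodendrocyte lineage list was 0.00358 to 0.0886 under RPL10A-STAMP and 0.0352 to 0.0762 under RPL22-STAMP, and that of the microglia list was 0 to 0.0143 and 0 to 0.0714. EPR is a ratio, so a marker shows only whether its RNA was edited, not how much RNA or how many cells there were. In bulk cultures fewer cells of a type and less RNA per cell cannot be told apart either. The part of glial RNA in the results below was not tested.

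The sequences of 8 Eph receptors show what the enzyme had to work on. APOBEC1 is known to favour cytosines that lie between A or U bases. The lines give the same 10 codons, matched by protein alignment, in each Eph receptor that was edited in all 6 libraries, read 5′ to 3′ on the coding strand from GRCm38, the build called mm10 in the study. All lie within 1 exon, in the extracellular part of the receptor, and capitals mark each C with A or T on both sides. They illustrate the sequence measure used later. The positions of the edits were not analysed here, and no capital is an observed edit.
Epha10 (chr4:124885873-124885902, plus strand): atgaagctgaaCaCagaggtgcgtgagatc
Epha3 (chr16:63773211-63773240, minus strand): CtgaaaCtCaaCaCtgagattagagaagtg
Epha4 (chr1:77506852-77506881, minus strand): atgaaaCtCaaCaCtgagatccgggatgta
Epha5 (chr5:84331532-84331561, minus strand): atgaaaCtgaataCagaggtCagagatgtc
Epha6 (chr16:60425025-60425054, minus strand): cttaaaCtCaaCaCtgaaatccgtgaggtg
Epha7 (chr4:28821329-28821358, plus strand): atgaagctgaaCaCtgaggtgagagagatt
Ephb2 (chr4:136771269-136771298, minus strand): atgaaaatCaaCaCtgaggtgcgaagcttc
Ephb6 (chr6:41614469-41614498, plus strand): CtgcagctgaatgtCaaagagcgcagcttt

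The stretch held 2 such cytosines in Epha10, Epha7 and Ephb6, 3 in Epha5 and Ephb2, 4 in Epha4 and Epha6 and 5 in Epha3. Over the whole transcript the density was lowest in Epha10 of all the guidance genes edited in every library, at 54.1 per kb, and was 72.2 in Ephb2 and 70.0 in Epha4. The Epha10 transcript with the longest coding sequence is annotated as incomplete at its 5′ end, so its GC content and density come from a partial model. The aligned part of the Epha10 protein was 42.7% identical to that of Ephb2, against 59.7% for Epha4.

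A larger share of the guidance genes than of all protein-coding genes was edited. Of the 64 genes, 31 (48.4%) were edited in all 6 libraries, against 36.1% of all protein-coding genes, and 55 (85.9%) were edited in at least 1, against 55.5%. The 31 were 13 ligands and 18 receptors. The 24 genes edited in 1 to 5 libraries and the 9 edited in none make up the rest. These shares are descriptions, since no read counts show how many of the genes at 0 had reads.

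The 9 genes listed at 0 in every library came from 6 families. They were the ephrins Efna1, Efna4 and Efnb1, the receptors Epha1, Epha2 and Ephb4 that bind ephrins, the secreted semaphorins Sema3b and Sema3g, and the plexin Plxnb3. Epha2 is best known from epithelia and Ephb4 from veins. No guidance gene had an EPR above 1 in any library.

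The partly edited genes differed in where their zeros fell. Of the 6 genes edited in exactly 5 libraries, Slit3 and Plxnd1 were at 0 only in RPL22-STAMP replicate 3, the library with the fewest edited genes. Altogether 6 genes were edited in 3 of 3 RPL10A-STAMP libraries and in fewer of the RPL22-STAMP libraries, and 4 the other way. Of the 6, Slit3, Sema4b, Sema6b, Ephb1 and Plxnd1 were at 0 in RPL22-STAMP replicate 3, and only Sema3e was not. The same counts over all genes are not given here, so no difference between the variants is read from them. The neuropilins, co-receptors of the secreted semaphorins, were both among the partly edited genes: Nrp1 had an EPR of 0.00299 in RPL10A-STAMP replicate 1 and 0 elsewhere, and Nrp2 was edited in 4 libraries at up to 0.00891. Dcc, the netrin receptor, was edited in 3 libraries at 0.00426 to 0.00565. The highest EPR of any guidance gene was 0.182, for the secreted semaphorin Sema3d in RPL22-STAMP replicate 1, but the gene was at 0 in the other 5 libraries. Epha8, an Eph receptor of the brain, had 0.00637, 0 and 0.008 under RPL10A-STAMP and 0.0116, 0.0487 and 0.0123 under RPL22-STAMP. Its RPL22-STAMP values all lay above its RPL10A-STAMP values, but the zero kept it out of the test. In a fit of all genes edited in at least 3 libraries, which took in Epha8, Epha10 alone of the guidance genes passed. The genes in this paragraph were picked after their values were seen.

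**Figure D1:**
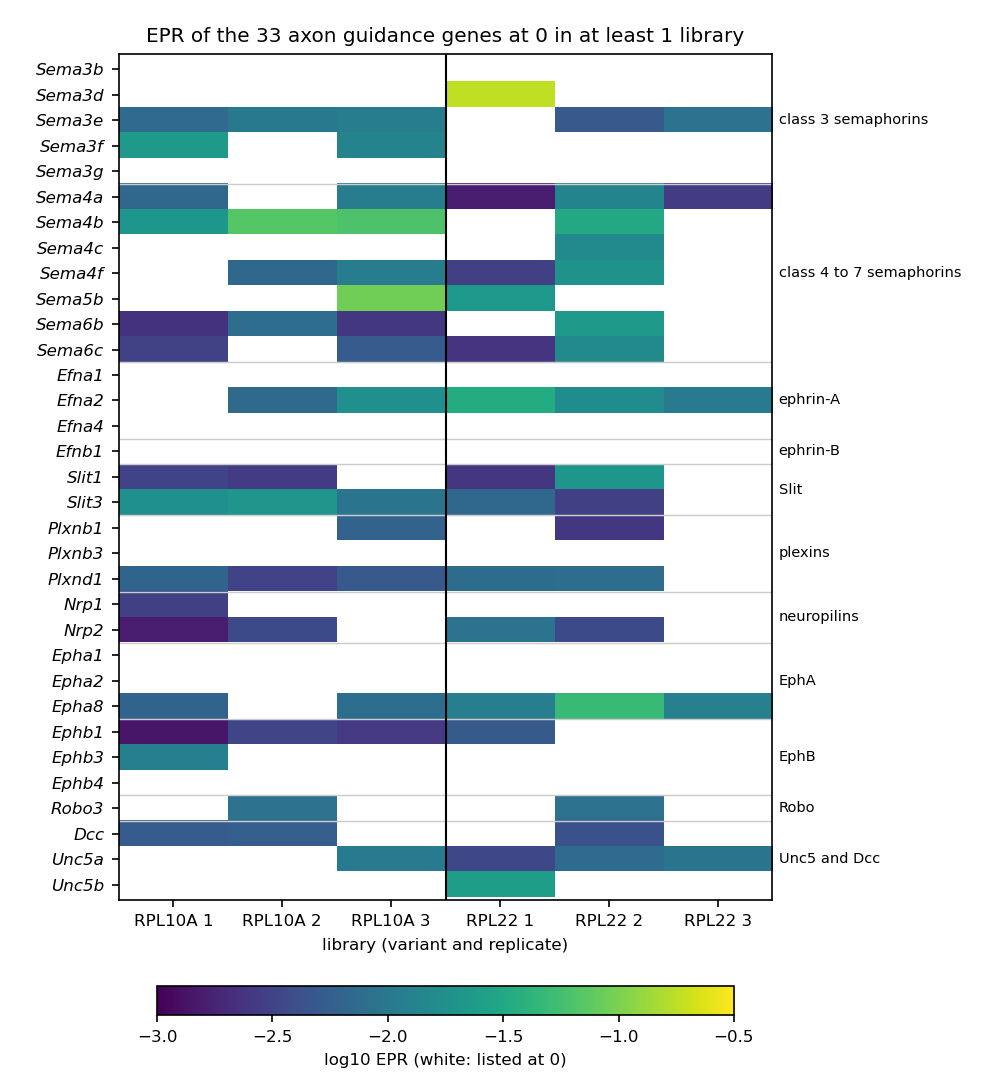
EPR on a log10 colour scale for the 33 guidance genes at 0 in at least 1 library, by gene (rows, grouped by family) and library (columns, 3 RPL10A-STAMP then 3 RPL22-STAMP). White cells are listed at 0. The rightmost column, RPL22-STAMP replicate 3, has the most white cells, and 9 rows are white throughout.

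Among the 31 genes edited in every library, editing was mostly below that of the typical gene. Their median EPR was 0.0107, 0.0122 and 0.0124 in the RPL10A-STAMP libraries and 0.00881, 0.0105 and 0.0106 in the RPL22-STAMP libraries. Divided by the median over all 8046 genes of the same library, this came to 0.892, 0.798 and 0.771 under RPL10A-STAMP and to 0.971, 0.814 and 0.947 under RPL22-STAMP. The ratio was below 1 in all 6 libraries, and its ranges overlapped between the variants. Ranked by mean EPR after scaling of the libraries to a common median, the guidance genes had a median percentile of 35.1. Ligands (35.1) and receptors (34.6) hardly differed. Of the 31 genes, 23 lay below the 50th percentile, 10 in the lowest 25% and 1, Sema4d, in the top 10%.

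**Figure D2:**
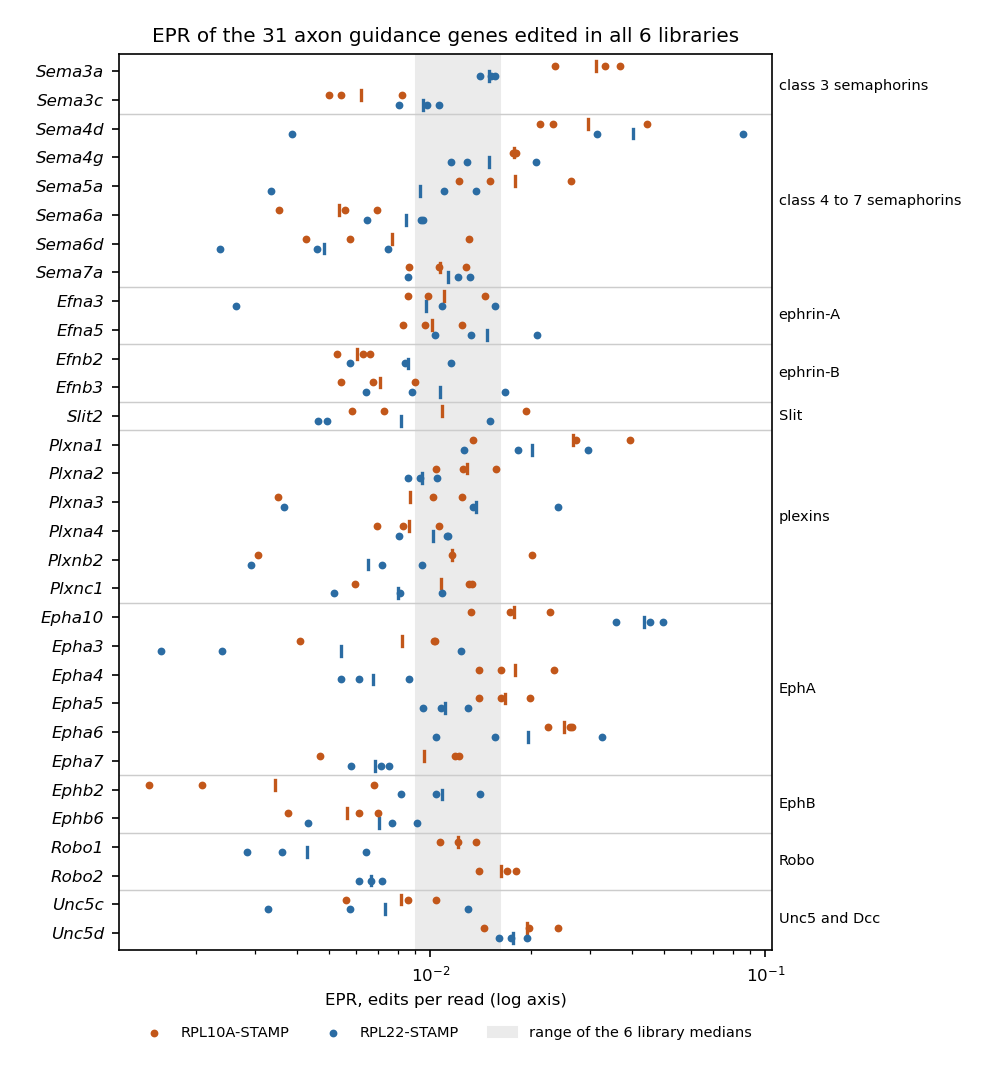
Deposited EPR (log axis, edits per read) of the 31 guidance genes edited in all 6 libraries. Points are libraries, short vertical bars are the means of 3 libraries of a variant, and the grey band spans the 6 library medians (0.00907 to 0.0161). Epha10 and Ephb2 have all RPL22-STAMP points to the right of all RPL10A-STAMP points. Robo1, Robo2, Epha4, Epha5 and Sema3a show the opposite order, although the scaled values of Epha5 and Sema3a overlap.

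The question between the variants was whether RPL10A-STAMP and RPL22-STAMP mark the same guidance mRNAs to the same degree, relative to other genes. Scaling the libraries to a common median removed any overall difference in editing between the variants before the test. Of the 31 genes 2 passed the test, the Eph receptors Epha10 and Ephb2, and both had the higher EPR under RPL22-STAMP. The test was limma on log2(scaled EPR + 0.01) across all 8046 genes with Benjamini-Hochberg adjustment, which called 14.3% of all genes. The calls higher under RPL10A-STAMP made up 8.51% of all genes, and those higher under RPL22-STAMP 5.77%. The 2 guidance genes are 6.45% of those tested. At an unadjusted p under 0.05 stood 9 guidance genes, of which 3 were higher under RPL10A-STAMP and 6 under RPL22-STAMP, which is 29.0% of the 31 against 30.9% of all genes. Likewise the scaled values of the variants did not overlap for 9 guidance genes (29.0%), against 37.1% of all genes. Of the 31 genes, 3 were higher under RPL10A-STAMP without overlap and 6 under RPL22-STAMP, against 20.0% and 17.1% of all 8046 genes.

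Fold changes below are RPL10A-STAMP over RPL22-STAMP on that log2 scale, which understates changes of weakly edited genes, while the EPR values are as deposited. Library medians were mostly higher under RPL10A-STAMP, so a gene with similar deposited values in both variants has a negative fold change. The median fold change was -0.05 over the guidance genes and -0.01 over all genes, and the signs split into 14 positive and 17 negative. Without scaling, the median of all genes moved to 0.18 and 20 of the 31 signs were positive. The fit then called 5 guidance genes, Epha10 higher under RPL22-STAMP and Epha4, Robo1, Robo2 and Sema3a higher under RPL10A-STAMP, beside 13.5% of all genes in either direction and 11.9% higher under RPL10A-STAMP. Over all genes 956 of 1085 calls were then higher under RPL10A-STAMP, against 685 of 1149 with scaling.

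Epha10 (chr4:124880899-124917800, plus strand) had the clearest difference. It encodes an unusual Eph receptor whose kinase domain is thought to be inactive. Its EPR was 0.0173, 0.0133 and 0.0227 under RPL10A-STAMP and 0.0358, 0.0452 and 0.0493 under RPL22-STAMP. The lowest RPL22-STAMP library was above the highest RPL10A-STAMP library. The means were 0.0178 ± 0.00475 and 0.0434 ± 0.00692 (SD, n = 3 each), for a log2 fold change of -1.23 (SE 0.168, limma adjusted p = 0.00602). It was also the most edited receptor, at the 89.5th percentile of all genes. An exon overlap with a gene on the other strand covers 1.10% of its exons.

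Ephb2 (chr4:136647539-136835988, minus strand), a receptor of B-type ephrins that acts at excitatory synapses, was weakly edited under RPL10A-STAMP. Its EPR was 0.00208, 0.00144 and 0.00677 under RPL10A-STAMP and 0.0104, 0.00817 and 0.014 under RPL22-STAMP. Again every RPL22-STAMP library was above every RPL10A-STAMP library, although RPL10A-STAMP replicate 3 stood well above the other two. The log2 fold change was -0.81 (SE 0.188, limma adjusted p = 0.0324). The call for Ephb2 was lost when any 1 library other than RPL22-STAMP replicate 2 was left out (adjusted p = 0.0568 to 0.106) and when the trend with GC content was removed (log2 fold change -0.50, adjusted p = 0.156), whereas Epha10 passed in all these fits. The call was also lost without scaling (adjusted p = 0.0557) and with the filter of at least 3 edited libraries (adjusted p = 0.0722).

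The Eph receptors did not share one direction. Epha4, which binds ephrins of both classes and is known for repulsive signalling, was the gene nearest the threshold. Its EPR was 0.014, 0.0234 and 0.0163 under RPL10A-STAMP and 0.00543, 0.00864 and 0.00611 under RPL22-STAMP, with no overlap. Its log2 fold change was 0.53 (SE 0.144, limma adjusted p = 0.0512), positive where that of Epha10 is negative. With the GC trend removed, that of Epha4 was 0.38 (limma adjusted p = 0.14). Epha4 passed in 3 of 16 alternative settings: no scaling, quantile normalization and no variance trend. Of 6 EphA receptors edited in every library, 5 had a positive sign and only Epha10 a negative one, but none of the 5 passed the test, and Epha3, Epha5 and Epha7 turned negative once the GC trend was removed (log2 fold changes -0.14, -0.03 and -0.28). The least edited was Epha3, at 0.00822 ± 0.00359 under RPL10A-STAMP and 0.00543 ± 0.00598 under RPL22-STAMP (SD, n = 3), where the variants overlapped. Ephb6, an EphB receptor without kinase activity, had 0.00562 ± 0.00166 and 0.00704 ± 0.00247 and overlapped as well.

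The ephrins, the ligands of these receptors, had negative signs and none passed, but the sign of Efna3 was positive in 7 of 16 alternative settings, among them no scaling (0.14) and removal of the GC trend (0.24). Efna5, an A-type ephrin anchored by a lipid that patterns topographic maps, had 0.00965, 0.00831 and 0.0124 under RPL10A-STAMP and 0.0132, 0.0208 and 0.0103 under RPL22-STAMP, which overlapped as deposited but not after scaling (log2 fold change -0.49, SE 0.172, limma adjusted p = 0.104). Efna3 had 0.011 ± 0.00317 and 0.0097 ± 0.00657 (SD, n = 3). A gene on the other strand covers 14.1% of its exons. The transmembrane ephrins Efnb2 (log2 fold change -0.35, limma adjusted p = 0.168) and Efnb3 (-0.41, adjusted p = 0.216) overlapped between the variants, and Efnb3 was at -0.08 with the GC trend removed (adjusted p = 0.831).

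The Robo receptors, which receive repulsive Slit signals, had positive fold changes. Robo1 (chr16:72308306-73046095, plus strand) had an EPR of 0.0107, 0.0137 and 0.0121 under RPL10A-STAMP and 0.00642, 0.00283 and 0.00361 under RPL22-STAMP. Robo2 (chr16:73891839-74411825, minus strand) had 0.0139, 0.0169 and 0.018, against 0.00719, 0.00611 and 0.00668. In both genes every RPL10A-STAMP library was above every RPL22-STAMP library, with log2 fold changes of 0.46 (SE 0.17, limma adjusted p = 0.119) and 0.45 (SE 0.135, adjusted p = 0.0687), and neither passed. Their sign was positive in all 16 alternative settings, but Robo2 was at 0.20 with the GC trend removed (adjusted p = 0.393). The partner ligand Slit2 varied more within a variant than between them, at 0.0193, 0.00586 and 0.00729 against 0.00464, 0.015 and 0.00491.

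The class 4 to 7 semaphorins held both the highest and the lowest mean EPR of the 31 genes. Sema4d, a transmembrane semaphorin that signals through B-type plexins, had the highest mean of all 31 genes and a wide spread between replicates. Its EPR was 0.0213, 0.0443 and 0.0232 under RPL10A-STAMP and 0.00386, 0.0855 and 0.0313 under RPL22-STAMP, so that its lowest and highest values both came from RPL22-STAMP libraries. The log2 fold change of -0.20 had an SE of 0.599, and its sign turned without scaling. At the low end, Sema6d, which acts through A-type plexins, had 0.0077 ± 0.00472 and 0.00481 ± 0.00256 (SD, n = 3).

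The secreted class 3 semaphorins Sema3a and Sema3c had fold changes of opposite sign, and neither passed. Sema3a, the classic growth cone repellent, had 0.0368, 0.0333 and 0.0235 under RPL10A-STAMP and a tight 0.0156, 0.0141 and 0.0151 under RPL22-STAMP. The deposited values did not overlap but the scaled ones did, and the log2 fold change of 0.45 did not pass (SE 0.224, limma adjusted p = 0.223). With the GC trend removed it was 0.10 (adjusted p = 0.829). Sema3c had 0.00497, 0.00542 and 0.00825 against 0.00804, 0.00977 and 0.0106, with a log2 fold change of -0.44 (SE 0.121, limma adjusted p = 0.0541). Its scaled values did not overlap, and it passed only once the GC trend was removed (log2 fold change -0.72, adjusted p = 0.0167).

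The plexins, receptors of the semaphorins, showed no difference that passed. Plxna1, a signalling partner of the neuropilins, was the most edited, with 0.0267 ± 0.013 under RPL10A-STAMP and 0.0201 ± 0.00863 under RPL22-STAMP (SD, n = 3), and a gene on the other strand covers 10.7% of its exons. Plxnb2 was the least edited, at 0.0116 ± 0.00855 and 0.00652 ± 0.00334. Plxna4, which like Plxna1 serves class 3 semaphorins, was the one plexin whose scaled values did not overlap between the variants (log2 fold change -0.30, SE 0.118, limma adjusted p = 0.13, and -0.18 with the GC trend removed). The netrin receptors also overlapped between the variants: Unc5d had 0.0194 ± 0.00477 and 0.0176 ± 0.00171, and Unc5c had 0.0082 ± 0.00243 and 0.00733 ± 0.00504.

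**Figure D3:**
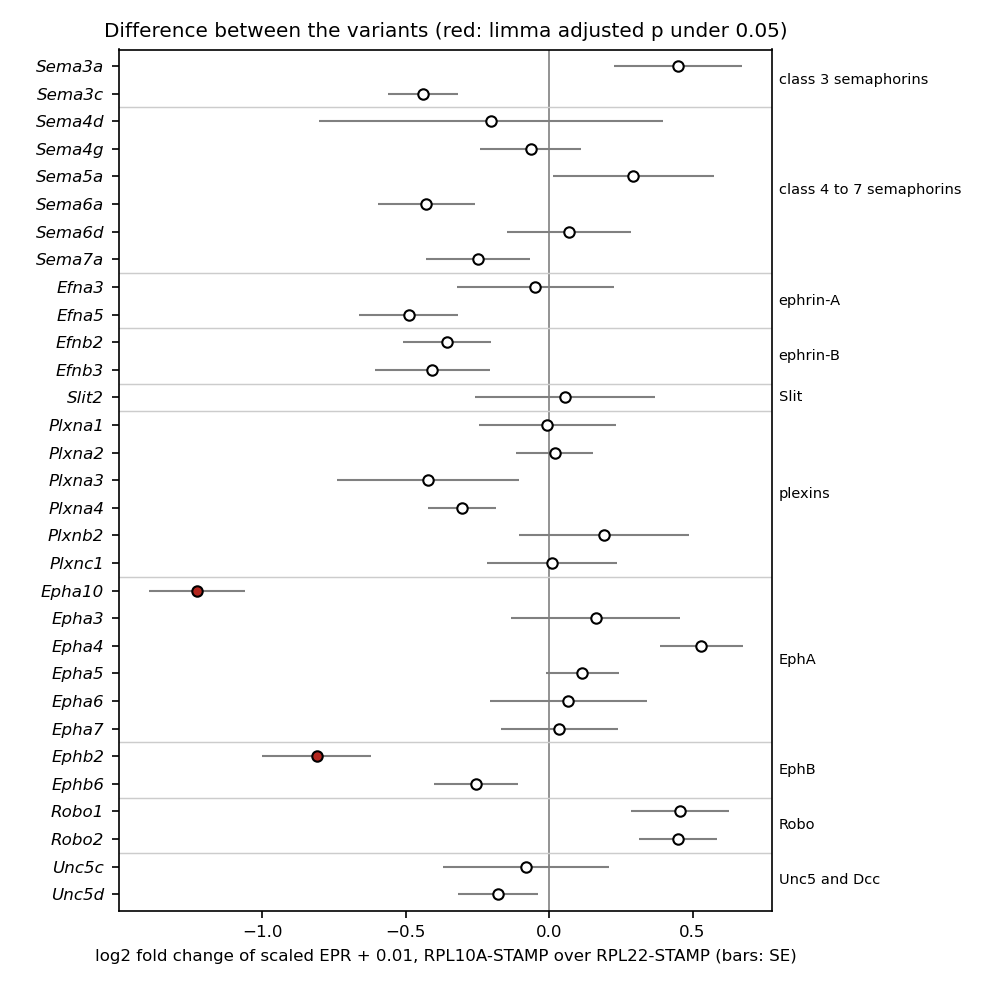
Log2 fold change of scaled EPR + 0.01, RPL10A-STAMP over RPL22-STAMP, with standard errors, for the 31 guidance genes in 11 families less the neuropilins, which were not tested. Red points passed limma at an adjusted p of 0.05. Epha10 (-1.23) and Ephb2 (-0.81) are the only red points, and the largest positive value is that of Epha4 (0.53).

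The order of the guidance genes by EPR was only partly shared by the variants. Spearman's rho of mean EPR between RPL10A-STAMP and RPL22-STAMP was 0.433 over the 31 genes and 0.653 over all 8046, each across genes and given as a description. No rho between replicates of the same variant is given here, and the part of replicate spread in these values was not tested. The spread between replicates was close to that of all genes: the median coefficient of variation was 0.286 under RPL10A-STAMP (0.28 over all genes) and 0.351 under RPL22-STAMP (0.321 over all genes).

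Base composition went along with the difference between the variants. Across the 31 genes the log2 fold change fell with transcript GC content (Pearson's r -0.519, Spearman's rho -0.491), as it did across 7918 genes of the whole table (-0.455 and -0.472). Without Epha10 and Ephb2 the values were -0.393 and -0.408 over 29 genes. Of the 14 guidance genes at or below the median GC content of all genes, 49.0%, 11 had a positive fold change and 3 a negative one, with a median of 0.09. Of the 17 above it, 3 were positive and 14 negative, with a median of -0.25. Epha10 has the highest GC content of the 31 genes, 59.5%, and Ephb2 has 57.3%. The share of cytosines with A or T on both sides gave the mirror image (r 0.511, rho 0.481), and it and GC content are nearly the same measure here (r -0.954). Epha10 was called after the GC trend was removed from each library and Ephb2 was not. With the replicate number as a block besides, the log2 fold change of Epha10 was -0.86 (limma adjusted p = 0.0507). The points share the same 6 libraries, and what links GC content to the difference was not tested.

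**Figure D4:**
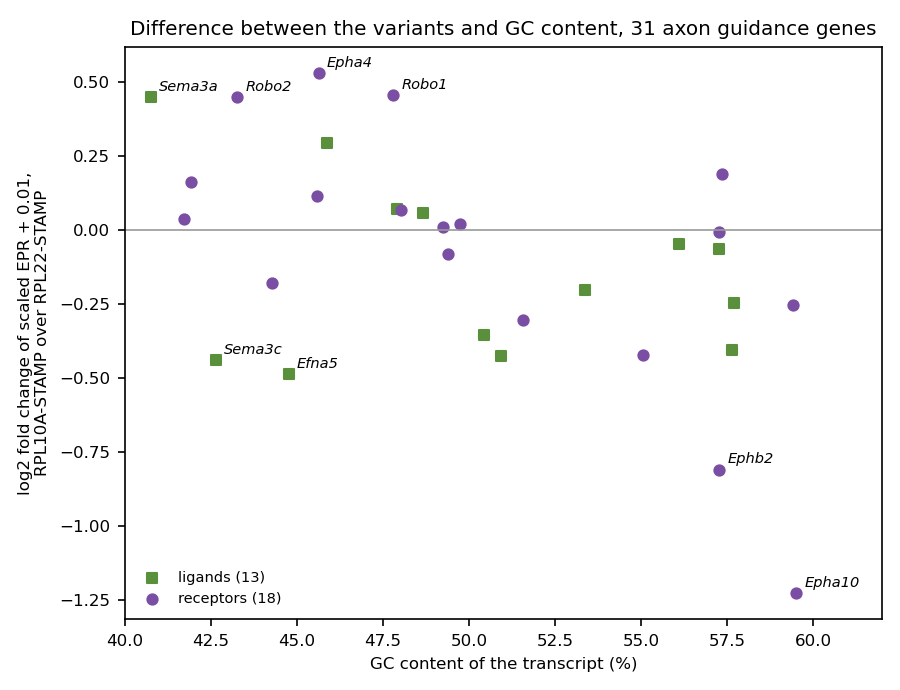
Log2 fold change of scaled EPR + 0.01, RPL10A-STAMP over RPL22-STAMP, against transcript GC content (%) for the 31 guidance genes, as ligands (squares) and receptors (circles). Genes with GC content under 49.0% lie mostly above 0 and richer genes mostly below, with Epha10 and Ephb2 lowest. Sema3c and Efna5 combine low GC content with negative values.

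Transcript size and editing state also went together. The 31 genes edited in every library had a median transcript length of 5660 bases, against 3460 over all tested genes, and a median 3′ untranslated region of 2070 bases against 1320. The 33 other guidance genes had a median length of 4180 bases. Median GC content was 49.4% in the first set, close to 49.0% over all tested genes, and 57.3% in the second. The edited guidance genes were thus longer and less GC-rich than those with zeros. The part of length and GC content in the detection of edits was not tested.

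Genes that act with or downstream of the guidance receptors passed the test about as often as all genes. Of 82 such genes listed, 81 were found, 66 were edited in all 6 libraries and 9 (13.6%, against 14.3% of all genes) passed the same fit, 3 higher under RPL10A-STAMP and 6 under RPL22-STAMP. The largest difference was in Rasa1, a Ras GTPase-activating protein, with 0.0485, 0.0906 and 0.0963 against 0.0184, 0.0163 and 0.0108 (log2 fold change 1.48, limma adjusted p = 0.00865). Every RPL10A-STAMP library of Rasa1 was above every RPL22-STAMP library. Lrig2, a leucine-rich repeat membrane protein, and Fzd3, a Wnt receptor needed for axon tracts, were also higher under RPL10A-STAMP (log2 fold changes 1.17 and 0.58).

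The genes higher under RPL22-STAMP included Ptprs, a receptor phosphatase that binds proteoglycans (log2 fold change -0.73), Chn1, a Rac GTPase-activating protein that works below Epha4 (-0.71), the growth cone protein Gap43 (-0.61), Enah, which elongates actin filaments (-0.58), and the lipid transfer protein Pitpna (-0.58). Their limma adjusted p values ran from 0.0145 to 0.0479. The median over the 66 genes was -0.08. Lrig2 and Rasa1 were among the 3 genes of the list that passed once replicate number was a block.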

How the data were processed

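Single-end reads of 6 libraries were trimmed with cutadapt and aligned to mm10 with STAR by the authors. Their C-to-U edit calls came from SAILOR and their read counts per gene from featureCounts. The deposited values are the ratio of edits to reads per gene (EPR), without normalization between libraries. The gene annotation is not given in the sources used here. The study's methods state equal read numbers for every sample, but the depth behind each value is unknown, so no intervals or detection limits are given.

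Of 31053 gene identifiers, 31011 were found in GENCODE M21 (GRCm38). Libraries were scaled to a common median, the geometric mean of their medians over the 8046 genes with edits in every library. log2(EPR + 0.01) was fitted with limma 3.58.1 (variance trend, R 4.3.3), with Benjamini-Hochberg adjustment over all 8046 genes and a threshold of 0.05. The code was tested on simulated data. Features of a gene are those of its transcript with the longest coding sequence, exon overlaps from bedtools 2.31.1, and summaries from Python 3.11.15.

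The members, gene lists and filter on edited genes were chosen with earlier results of these data known. Named genes were all called members, the most and least edited tested member of each family, members edited nowhere, and called pathway genes, of which 1 is not reported here. Others (Epha4, Robo1 and Robo2 in their statistics, Plxna4, Epha5, Epha7, Epha8, Sema4g and Sema7a) were added after their values were seen. So were Sema3d, Sema3e, Sema4b, Sema6b, Slit3, Ephb1, Plxnd1, Nrp1, Nrp2 and Dcc. The labels number the replicates within a variant. The study calls them biological replicates in its methods and technical ones elsewhere. Nothing ties libraries of the same number, and p values measure only the spread between these libraries, which may be technical.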

Additional observations from a re-analysis of the deposited data

How the results depend on the processing

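No deposited value carries a depth, so a weakly edited gene and one with few reads look alike, and with 3 libraries per variant the power was limited. Of the 2 calls, Epha10 held in 15 of 16 alternatives (adjusted p 0.00496 to 0.0507) and Ephb2 in 6 (0.0281 to 0.156). Of 21 followed genes, 11 kept their sign throughout. Called guidance genes numbered 1 of 46 tested with genes edited in at least 3 libraries, beside 754 of 10909 genes in all. With no filter on low values they numbered 1 of 55, beside 569 of 12811. The other fits tested 31 guidance genes. Without scaling 5 were called, beside 1085 of 8046 genes. After quantile normalization (1118 of all genes) or without the variance trend (1176) 3 were called, with Epha4 added. At a pseudocount of 0.001 (1090) or 0.1 (1097) 2 were called. Removal of the GC trend also gave 2 (Epha10 and Sema3c), beside 656 of 7918 genes. Leaving out 1 library gave 1 to 2, always with Epha10. Robo1 joined without RPL22-STAMP replicate 1 (log2 fold change 0.65, adjusted p = 0.0393).

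The replicate numbers gave no pairing: deviations from the group means correlated between same-numbered libraries at 0.0437, 0.0464 and -0.00546. With the replicate block, 2 guidance genes and 3 pathway genes were called, and with the GC trend removed as well limma called 0 of each, with 7 and 13 at an unadjusted p under 0.05. Against 9, the pathway counts were 2 with no filter on low values, 6 with at least 3 libraries, 7 without scaling (4 of the 9 among them), 8 at a pseudocount of 0.1 or after quantile normalization, 6 after removal of the GC trend, 2 to 7 with 1 library left out and 9 in the remaining fits. Over all genes, 1149 calls became 754 with genes edited in at least 3 libraries, 569 with no filter, 603 with the block, 656 without the GC trend, 245 with both and 369 to 865 with 1 library left out. The wider filters tested more genes, and the fits with 1 library left out used fewer samples. The cause of the smaller counts was not tested for any of these fits.

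The ratio of the guidance genes' median EPR to the median gene, 0.82 for RPL10A-STAMP, became 0.733 over genes edited in the single library and ranged from 0.784 to 0.845 without 1 library. These values hold for RPL10A-STAMP alone. The ratio was 0.971, 0.814 and 0.947 in the RPL22-STAMP libraries, and its values in other settings are not given here.

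None of the 10 followed genes whose log2 fold change reversed was called in any setting. Without scaling the reversed values were 0.1424 for Efna3, 0.2583 for Plxna1, 0.0152 for Sema4d, 0.1006 for Unc5c and 0.0789 for Unc5d. With the GC trend removed, with or without the block, they were 0.2368 for Efna3, 0.3093 for Plxna1, -0.1432 for Epha3 and 0.1069 for Ephb6. Outside the followed genes, the same fits gave reversed values of -0.03 for Epha5, -0.28 for Epha7, 0.25 for Sema4g and 0.08 for Sema7a. Efna3 was 0.047 at a pseudocount of 0.001, and Plxna1 was 0.003 at a pseudocount of 0.1. With 1 library left out, Efna3 ranged from -0.3663 to 0.1159, Plxna1 from -0.2064 to 0.2019, Plxnb2 from -0.0325 to 0.5035, Sema4d from -0.9088 to 0.4024, Sema6d from -0.0812 to 0.2777, Slit2 from -0.2707 to 0.2637 and Unc5c from -0.3124 to 0.2362.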
